A study of Mus musculus with 15 samples.

Results

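The interleukin genes described here are the 43 endogenous genes of the panel whose names begin with Il and a digit, outside the Il1a, Il1b, Il1r, Il18 and Il6 name groups, out of 547 endogenous genes counted in all. They comprised 24 ligands and 19 receptor chains, and 14 further genes fell in the name groups left out. Counts came from microglia sorted from the brains of male C57BL6J mice (given as 2 or 3 months old) after controlled cortical impact (CCI), in which a piston strikes the exposed cortex, or after sham injury. Microglia were gated as CD11b high and CD45 low to intermediate, a gate defined by surface level rather than by lineage. The groups were sham (4 samples), 2 days post-injury (dpi, 4 samples), 14 dpi (4 samples) and 60 dpi (3 samples). All injured groups were compared with 1 set of shams taken at 2 days, and the mice of the 14 and 60 dpi groups were not randomized. The group sizes in mice given in the study match the numbers of samples, but no label ties a sample to 1 animal. The p-values are therefore read as weighing a group difference against the scatter of these samples within groups.

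Endogenous counts totalled 66905 to 280528 per sham sample, 95257 to 191160 at 2 dpi, 108128 to 238060 at 14 dpi and 169784 to 226892 at 60 dpi. The 60 dpi samples were all counted in a second instrument run and the other groups in the first, so time point and run cannot be told apart for any comparison with 60 dpi. All 9 microglial markers measured were above background often enough to be tested. By contrast, 12 of 17 T cell markers, 6 of 8 B cell markers and 6 of 7 NK cell markers were above background in no sample, as were the mast cell markers. No measured neutrophil, monocyte or endothelial marker was below background throughout. The neutrophil markers S100a8, S100a9 and Csf3r, the monocyte markers Fn1 and Tgfbi and the endothelial marker Pecam1 were above background in all 15 samples. Among the controls, the negative probe NEG_B read 7 to 12 in first-run samples and 50 to 72 in second-run samples.

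Interleukins are secreted signals between immune cells. Most of those on the panel bind receptors built from a private chain and a shared chain, and the shared chains define the families: the common gamma chain Il2rg for Il2, Il4, Il7, Il9, Il15 and Il21, the chain Il10rb for much of the Il10 family, Il12rb1 for Il12 and Il23, and Il17ra for the Il17 family. Receptors of the first 3 families signal through JAK kinases and STAT factors, whereas Il17ra recruits the TRAF and NF-kappaB route. Microglia carry receptors for several of these signals, with T cells, mast cells and innate lymphoid cells as common sources of the ligands.

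Il21r had the largest fall of the set, Il7r was called lower at 2 and 14 dpi, and Il12b was called higher at 14 dpi. The 14 dpi calls held in only 2 of 8 fits with 1 sample left out for Il7r, and in 4 of 8 for Il12b. Promoters of these 3 genes are shown. Each is the 250 bases before the RefSeq start of the gene in GRCm38.p6, 5′ to 3′ on the gene's strand, at chr7:125603179-125603428 (plus strand) for Il21r, chr15:9529877-9530126 (minus strand) for Il7r and chr11:44399813-44400062 (plus strand) for Il12b. Capitals mark matches, on either strand, to TTCNNNGAA, the general letters of a STAT site, or GAGGAA, letters found within sites of the myeloid factor PU.1.
Il21r: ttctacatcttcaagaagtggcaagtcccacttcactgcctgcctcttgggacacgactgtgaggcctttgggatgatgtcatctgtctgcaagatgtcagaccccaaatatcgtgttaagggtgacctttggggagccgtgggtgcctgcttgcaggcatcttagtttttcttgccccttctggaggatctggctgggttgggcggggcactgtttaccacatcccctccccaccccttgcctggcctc
Il7r: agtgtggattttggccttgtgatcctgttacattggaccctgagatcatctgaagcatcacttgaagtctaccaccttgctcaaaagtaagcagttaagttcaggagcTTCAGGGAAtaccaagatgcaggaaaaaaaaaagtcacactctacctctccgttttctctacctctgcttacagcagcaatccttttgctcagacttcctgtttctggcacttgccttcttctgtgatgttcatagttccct
Il12b: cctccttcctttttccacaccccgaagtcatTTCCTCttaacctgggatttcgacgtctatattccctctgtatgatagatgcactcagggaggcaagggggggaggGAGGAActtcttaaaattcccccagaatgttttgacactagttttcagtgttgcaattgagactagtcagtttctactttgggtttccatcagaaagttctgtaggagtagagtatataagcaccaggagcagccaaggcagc
The Il7r promoter held TTCNNNGAA, with its first base 142 bases before the start, and the Il12b promoter held GAGGAA at 219 and 143 bases before the start, the former on the opposite strand. The Il21r sequence held neither. Across all 32851 promoters of the same length, 7.02% held TTCNNNGAA and 23.3% held GAGGAA. Of 36 promoters belonging to 29 member genes, 3 held the former and 10 the latter. The promoters of Il4ra and Il13 also held neither, and a match or its absence says only which letters lie in this window.

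Interleukin receptors stood clear of the negative controls in microglia far more often than their ligands did. A gene was called above background in a sample when its raw count passed the mean plus 2 SD of the sample's 8 negative controls, a limit that lay between 25.0 and 34.0 counts for first-run samples and between 57.1 and 67.7 for second-run samples. By this limit 7 of 19 receptor chains were above background in all 15 samples, namely Il10ra, Il10rb, Il13ra1, Il17ra, Il21r, Il4ra and Il7r. Of the 24 ligands only Il13 and Il16 were. These 9 genes made up 20.9% of the set, against 41.3% of all endogenous genes above background throughout. The share was 36.8% of receptor chains, below that of all genes, and 8.33% of ligands.

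Detection in at least 3 samples, the condition for testing, was met by 17 members (39.5%, against 65.6% of all endogenous genes). These were 11 receptor chains (57.9% of them) and 6 ligands (25.0%). Besides the 9 above, Il2rg was above background in 13 samples, Il12b in 7, Il12rb1, Il15ra, Il33 and Il9 in 4 each, and Il15 and Il2ra in 3 each. Because a gene could pass through the group in which it was high, the 17 are not described as the set as a whole. Between 10 and 17 members were above background in any 1 sample, with the highest number in 14 dpi replicate 1.

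Of the 26 members not tested, 20 were above background in no sample and 6 in 1 or 2 samples. The 20 were the ligands Il2, Il3, Il4, Il5, Il7, Il12a, Il17b, Il17f, Il19, Il20, Il21, Il22, Il25 and Il27, most of them T cell or myeloid cytokines, and the receptor chains Il2rb, Il17rb, Il17re, Il22ra2, Il23r and Il27ra. Il10, the main anti-inflammatory ligand, was above background only in 14 dpi replicate 2, at 32 counts, although both chains of its receptor were above background in every sample. The receptor chains Il11ra1 and Il12rb2 each passed in 1 sample. Il4 read 3 to 12 counts in first-run samples and 4 to 7 at 60 dpi, while Il13, the adjacent gene on chromosome 11, read 54 to 94 and 266 to 328.

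**Figure D1:**
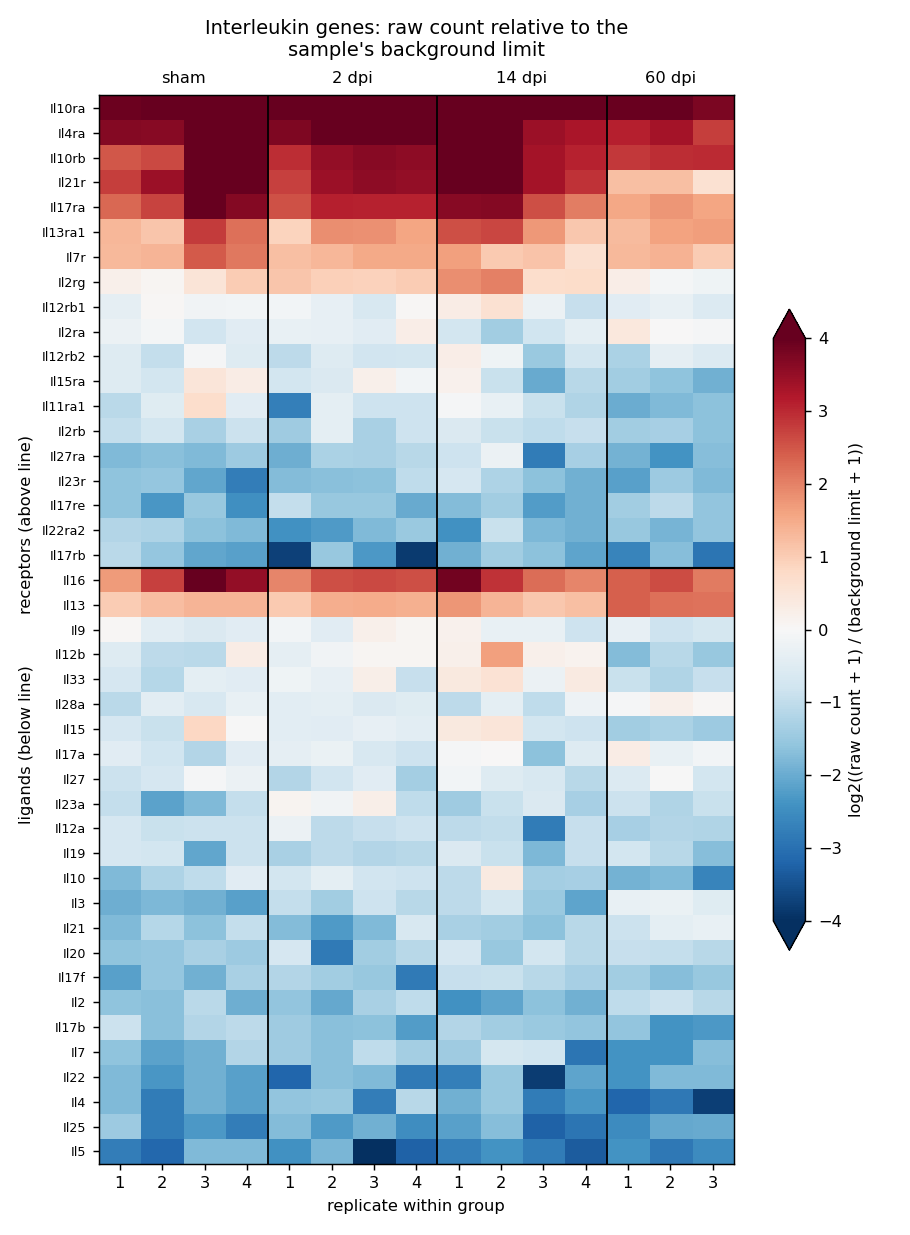
Raw count of each of the 43 genes relative to the background limit of the same sample, on a log2 scale after adding 1 to both. Columns are samples by group, rows are receptors above the line and ligands below it. Red cells pass the limit: 7 receptors and the ligands Il16 and Il13 do so in all 15 samples, and most ligands stay blue.

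At 2 dpi, 6 of the 17 tested members were lower than in sham microglia in edgeR. None was higher in edgeR (0 also before adjustment), in DESeq2 (0 with either set of factors) or in limma (0). DESeq2 called the same 6 lower with the scaling used in edgeR and 3 with its own size factors, and limma called 8, with Il10rb and Il4ra added. Those that fell in edgeR were Il16 and the receptor chains Il21r, Il7r, Il10ra, Il13ra1 and Il17ra. Of all 359 genes tested, 28.1% were called lower and 7.24% higher, so falls were common across the panel at this time. The median log2 fold change was -0.49 over the 17 members and -0.30 over all tested genes. All adjusted p-values are from edgeR's quasi-likelihood test over the 359 genes, and the per-sample values are counts normalized to positive controls and housekeeping genes. In sorted populations like these, fewer cells of a type and less RNA per cell cannot be told apart.

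Il16 encodes a precursor whose processed end attracts CD4-bearing cells. Its normalized counts were 172, 362, 366 and 228 in sham and 124, 165, 130.3 and 131 at 2 dpi. The groups did not overlap, as was true of 24.2% of all tested genes in this direction. The log2 fold change was -1.04 (SE 0.21, adjusted p = 0.00205), a 2.06-fold fall. At 14 dpi Il16 read 271, 185, 215 and 196, and at 60 dpi 349, 287 and 259, with neither different from sham by the test (adjusted p = 0.198 and 0.840).

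Il21r, the private chain of the Il21 receptor, read 360.3, 583, 476 and 366 in sham and 218, 298, 254 and 251 at 2 dpi. Every 2 dpi sample lay below every sham sample, with a log2 fold change of -0.80 (SE 0.18, adjusted p = 0.00323). Il7r, the chain that binds Il7 and pairs with Il2rg, read 129, 139, 98.4 and 85.4 in sham and 74.4, 69.0, 59.6 and 62.5 at 2 dpi, again without overlap. Its log2 fold change was -0.75 (SE 0.22, adjusted p = 0.0147), a call lost without sham replicate 2 or 2 dpi replicate 3 (-0.67 to -0.64, adjusted p = 0.0564 to 0.0574).

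Il10ra, the ligand-binding chain for Il10, read 803, 1032, 1306 and 849 in sham and 539, 813, 550.3 and 508 at 2 dpi. The highest 2 dpi sample, replicate 2, reached the lowest sham sample. The log2 fold change was -0.73 (SE 0.19, adjusted p = 0.00774), and without sham replicate 3 it was -0.54 with an adjusted p of 0.0519. Il17ra, the chain shared by Il17 family receptors, read 262, 355, 323 and 252 in sham and 189, 240.1, 179 and 185 at 2 dpi. These groups did not overlap and differed by -0.59 on the log2 scale (SE 0.16, adjusted p = 0.0105). Il13ra1, which joins Il4ra in a receptor for Il4 and Il13, read 133, 117, 127 and 92.0 in sham and 59.8, 100.1, 73.8 and 64.9 at 2 dpi. Its log2 fold change was -0.64 (SE 0.20, adjusted p = 0.0198), with overlap of 2 dpi replicate 2, and its call was lost without sham replicate 3 or without 2 dpi replicate 1, 3 or 4 (-0.61 to -0.54, adjusted p = 0.0588 to 0.0721).

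Of the receptor chains above background in every sample, Il4ra and Il10rb did not pass the test in edgeR. Il4ra was at -0.30 (SE 0.15, adjusted p = 0.106) and Il10rb at -0.29 (SE 0.14, adjusted p = 0.110). The common chain Il2rg was at 0.23 (SE 0.29, adjusted p = 0.560). Scaling mattered here. With TMM factors the median of all tested genes was -0.04, the split over all genes was 47 higher and 43 lower instead of 26 and 101, and Il16, Il21r and Il10ra remained called lower while Il7r, Il17ra and Il13ra1 did not. With positive-control factors alone no member was called, and the split was 20 and 1. The differences were then still below 0 with larger errors, at -0.95 for Il16 (SE 0.45, adjusted p = 0.331), -0.68 for Il10ra (SE 0.46, adjusted p = 0.603) and -0.62 to -0.44 for the other 4. Measured from the median of all genes, the 6 changes were -0.74 for Il16, -0.50 for Il21r, -0.45 for Il7r, -0.43 for Il10ra, -0.34 for Il13ra1 and -0.29 for Il17ra.

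Markers of the sorted cells moved at the same time. Of the 9 microglial markers 6 were lower at 2 dpi, with summed normalized counts of 28382 to 38054 in sham and 21094 to 27469 at 2 dpi. Of 7 monocyte markers 5 were higher, with sums of 552 to 759 in sham and 1277 to 1634 at 2 dpi. Their part in the falls of Il16 and the receptor chains was not tested.

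At 14 dpi, 3 members were higher than in sham and 1 was lower. Il12b, Il2rg and Il10rb rose, and Il7r was lower. Across all tested genes 21.4% were called higher and 4.18% lower, and the median log2 fold change was 0.02 over the 17 members and 0.08 over all genes. The sham samples are the same as those used for 2 dpi.

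Il12b, the subunit common to Il12 and Il23, read 35.2, 24.9, 8.02 and 23.5 normalized counts in sham and 20.9, 78.0, 50.5 and 54.1 at 14 dpi. The raw counts were low, at 15 to 32 in sham and 30 to 80 at 14 dpi, but passed the background limit in all 4 samples at 14 dpi and in 1 of 4 shams. Its log2 fold change was 1.24 (SE 0.40, adjusted p = 0.0303), with 14 dpi replicate 1 inside the sham range. The call was lost without sham replicate 3 or without 14 dpi replicate 2, 3 or 4 (0.90 to 1.24, adjusted p = 0.0555 to 0.150), and also in fits with sham and 14 dpi alone or without the 60 dpi samples, and the gene was not tested under a limit of the mean plus 3 SD. The partner subunits stayed in the background: Il12a read 3 to 15 raw counts at 14 dpi and Il23a 9 to 18.

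Il2rg read 58.7, 56.1, 25.7 and 39.7 in sham and 67.5, 101, 73.3 and 82.8 at 14 dpi. Every 14 dpi sample was above every sham sample, as for 16.7% of all tested genes. The gene stood at 0.90 on the log2 scale (SE 0.29, adjusted p = 0.0298). It was no longer called without sham replicate 3 or 4 or without 14 dpi replicate 2 or 4 (0.71 to 0.89, adjusted p = 0.0568 to 0.0918). Il10rb, the second chain of the Il10 receptor, read 296, 335, 389 and 318 in sham and 429.8, 503, 458 and 424 at 14 dpi, without overlap. Its log2 fold change was 0.44 (SE 0.14, adjusted p = 0.0303), a call lost without sham replicate 1 or 4 or without 14 dpi replicate 2 or 3 (0.39 to 0.44, adjusted p = 0.0558 to 0.0782) and with TMM factors (0.25, adjusted p = 0.143).

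Il7r stayed low, at 57.0, 51.7, 99.3 and 77.7 against the sham values above. Only 14 dpi replicate 3 lay within the sham range. It stood at -0.67 on the log2 scale (SE 0.22, adjusted p = 0.0366). The call did not survive leaving out sham replicate 1, 2 or 3 or 14 dpi replicate 1, 2 or 4 (-0.71 to -0.52, adjusted p = 0.0512 to 0.133). With TMM factors the calls at 14 dpi were Il12b and Il2rg higher and Il7r, Il15ra, Il16, Il17ra and Il4ra lower, and the split over all genes was 68 higher and 65 lower instead of 77 and 15 (20 and 0 with positive-control factors alone). Il33, an alarmin released by damaged cells and made in brain by glia other than microglia, was above background in 3 of 4 samples at 14 dpi and in no sham, at least 1.15-fold higher, and missed the threshold in edgeR (log2 fold change 1.05, SE 0.39, adjusted p = 0.0526). It was called higher in 7 alternative fits, namely with housekeeping factors alone, DESeq2 with either set of factors, the negative-control mean subtracted, an additive background, the limit of the mean plus 3 SD, and limma. It was above background in 1 sample outside 14 dpi, so it entered the test through that group.

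Between 2 and 14 dpi, 6 members rose and 0 fell in edgeR (0 also before adjustment, and 1 in DESeq2 with its own size factors), where 39.6% of all tested genes rose and 2.79% fell. Those that rose were Il10ra (log2 fold change 0.93, SE 0.19, adjusted p = 0.000868), Il10rb (0.73), Il13ra1 (0.82), Il21r (0.77), Il16 (0.66) and Il12b (1.11). For Il10ra the 14 dpi values were 1001, 1398, 1177 and 1003, above every 2 dpi value. Il21r stood at 434, 471, 461 and 377, which was -0.03 from sham (SE 0.18, adjusted p = 0.923). Il10rb, Il13ra1, Il16 and Il21r also did not overlap between the time points, where 35.7% of all tested genes were higher without overlap and 1.95% lower. Il7r did not take part in this rise, at 0.09 (SE 0.23, adjusted p = 0.768) between 2 and 14 dpi.

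These rises depended on the scaling. With TMM factors the median over all genes moved from 0.43 to -0.02 and the split from 142 higher and 10 lower to 44 and 23 (7 and 10 with positive-control factors alone). Il10ra remained called higher and Il4ra, at 0.03 with housekeeping and positive-control factors, was called lower at -0.41 (adjusted p = 0.0335). Relative to the median of all genes the changes were 0.49 for Il10ra, 0.29 for Il10rb, 0.38 for Il13ra1, 0.33 for Il21r, 0.22 for Il16 and 0.68 for Il12b. The call of Il12b was lost without 2 dpi replicate 1, 3 or 4 or 14 dpi replicate 2 or 4 (0.81 to 1.13, adjusted p = 0.0510 to 0.138), and that of Il16 without 2 dpi replicate 1, 3 or 4 (0.60 to 0.62, adjusted p = 0.0502 to 0.0619). Il12b passed in only 5 of 12 alternative fits. Besides changes of scaling, its call was lost with the negative-control mean subtracted, an additive background, limma, or the 60 dpi samples left out. Microglial markers moved likewise, with 8 of 9 higher at 14 than at 2 dpi, and their part in these rises was not tested.

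**Figure D2:**
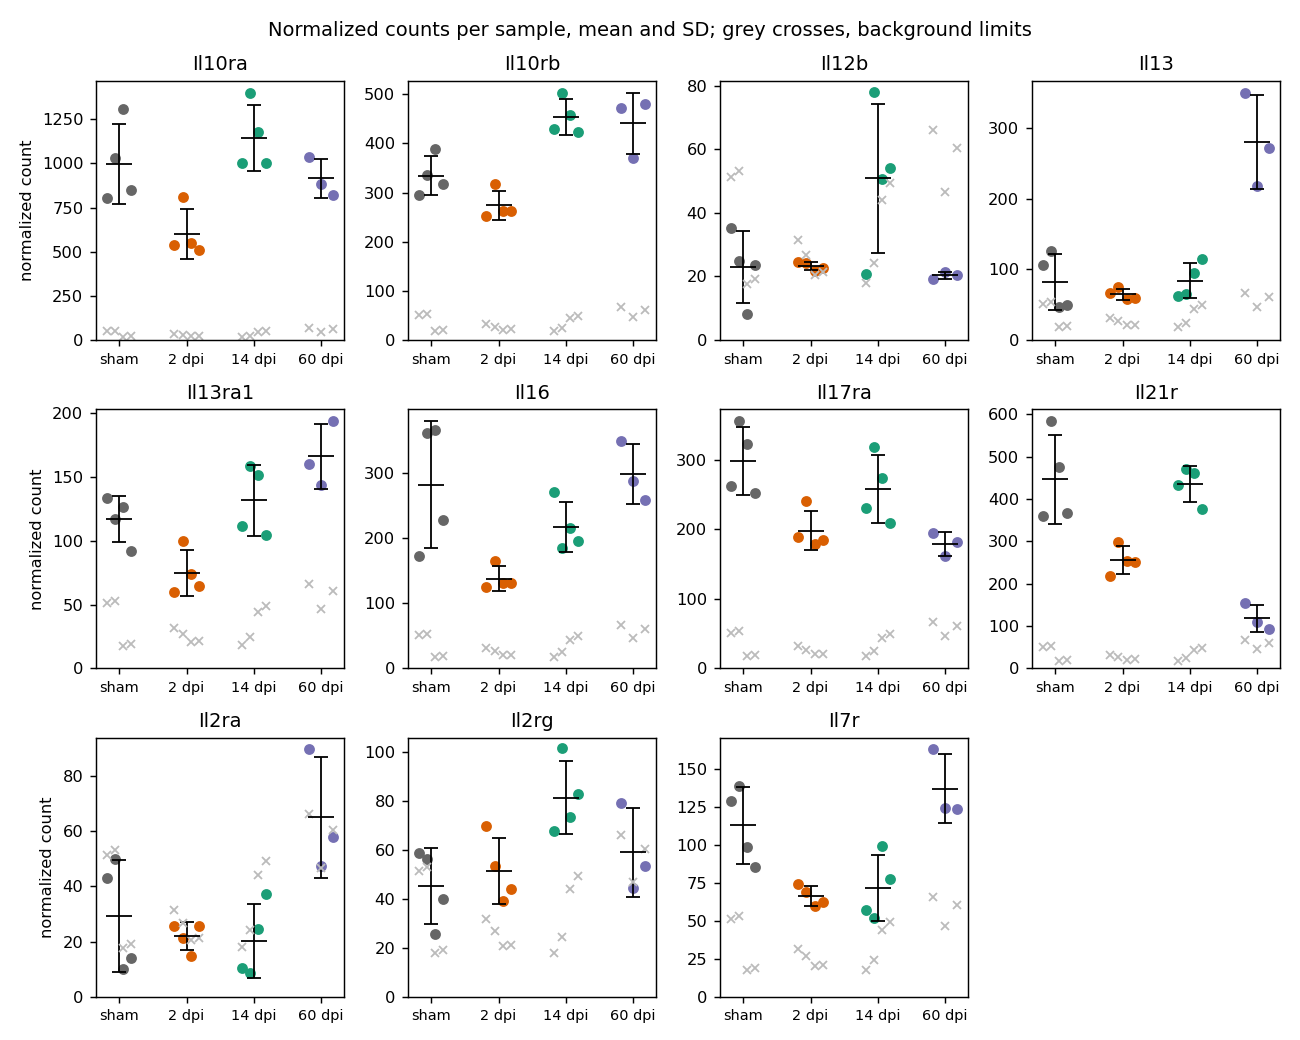
Normalized count in every sample (points) for the 11 genes called in at least 1 comparison, with the group mean and SD (bars) and the background limit of each sample on the same scale (grey crosses). Il21r runs from 360.3 to 583 in sham to 92.6 to 154 at 60 dpi, Il13 rises to between 218 and 349.9 at 60 dpi, and Il12b and Il2ra lie near the background limits.

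At 60 dpi the 2 largest changes from sham among the 17 tested members ran in opposite directions. Il21r was 3.78-fold lower than in sham and Il13 was 3.55-fold higher. Il17ra was also lower and Il10rb higher, which made 2 members higher and 2 lower, against 25.1% and 11.1% of all tested genes. The median log2 fold change was 0.30 over the 17 members and 0.12 over all tested genes. Over all genes 90 were higher and 40 lower, or 76 and 67 with TMM factors. Every one of the 60 dpi samples came from the second run.

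Il21r read 154, 109 and 92.6 at 60 dpi, below every sample of the other 3 groups. Of all tested genes 11.7% lay wholly below sham at 60 dpi and 21.2% wholly below 14 dpi. The raw counts were 104 to 144 at 60 dpi and 179 to 890 in the first run. The log2 fold change was -1.92 against sham (SE 0.21, adjusted p = 1.01e-06) and -1.88 against 14 dpi (SE 0.21, adjusted p = 1.98e-06). All 12 alternative fits and all 7 fits that left out a sham or 60 dpi sample kept the call against sham, between -2.21 and -1.76 on the log2 scale. Il4ra, the neighbouring gene of Il21r on chromosome 7, read 577, 478 and 417 at 60 dpi and 677, 681, 574 and 525 in sham, at -0.32 (SE 0.16, adjusted p = 0.117). It was called lower with TMM factors (-0.46, adjusted p = 0.0153).

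Il13, a type 2 cytokine made chiefly by T helper 2 cells, innate lymphoid cells and mast cells, read 106, 126, 46.5 and 50.0 in sham, 65.9, 74.9, 58.3 and 58.6 at 2 dpi, and 62.6, 64.3, 94.4 and 115 at 14 dpi. At 60 dpi it read 349.9, 218 and 272, above all the others, where 23.7% of all tested genes lay wholly above sham and 23.1% wholly above 14 dpi. The log2 fold change was 1.83 against sham (SE 0.30, adjusted p = 0.000154) and 1.76 against 14 dpi (SE 0.30, adjusted p = 0.000166). The call against sham held in all 12 alternative fits and all 7 leave-one-out fits, from 1.63 to 2.14. No run held both 60 dpi and another group, so all these fits also compared the 2 runs. No value within a run could be had.

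Within the first run the Il13 count varied little with the amount of RNA counted. Its raw counts spanned 54 to 94, a ratio of 1.74, while total endogenous counts spanned a ratio of 4.19, Il10ra 5.96, Il21r 4.97 and Il16 7.77. The mean of the negative controls had a ratio of 1.32. At 60 dpi the raw Il13 counts were 328, 266 and 306, where NEG_B was 60, 50 and 72 and the other negative controls reached at most 43. The ratio of mean raw counts between the runs was 4.13 for Il13, 4.72 at most among untested members (Il3), and 6.93 for NEG_B. Neither mast cell marker measured was above background in any sample. Of 3 T cell markers tested, only Cd3d, a chain of the T cell receptor complex, was called higher at 60 dpi than in sham. Cd3e, another T cell marker, was above background in no sample. It read 8 to 14 raw counts at 60 dpi and 6 to 11 in sham. The summed counts of the 17 T cell markers were 517 to 738 at 60 dpi against 200.1 to 513 in sham. Of the 17, 12 were below background throughout, so much of the list lay at low counts. Their part in the Il13 value was not tested.

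Il17ra read 194, 161 and 182 at 60 dpi, below every sham sample. Against sham the difference was -0.74 (SE 0.18, adjusted p = 0.00331), and it fell short of the threshold with positive-control factors alone but with no sample left out. Against 14 dpi, at 231, 319, 274 and 209, the difference was -0.53 (SE 0.18, adjusted p = 0.0200), lost without 14 dpi replicate 2 or 60 dpi replicate 2 or 3 (-0.53 to -0.42, adjusted p = 0.0516 to 0.104). Il10rb read 473, 369.8 and 479.7 at 60 dpi, overlapping sham, at 0.39 (SE 0.15, adjusted p = 0.0490). Its call was lost in 9 of 12 alternative fits and without sham replicate 1, 2 or 4 or 60 dpi replicate 1 or 3 (0.32 to 0.40, adjusted p = 0.0664 to 0.173). Il13ra1 at 160.0, 144 and 194 was above every sham sample, but did not pass the test (0.51, SE 0.21, adjusted p = 0.0637).

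Between 14 and 60 dpi, Il13 and Il7r rose and Il21r, Il17ra and Il12b fell, where 21.7% of all tested genes rose and 22.3% fell. Il2ra was also called higher but is given as a description only. Il7r rose from 57.0, 51.7, 99.3 and 77.7 to 163, 124 and 124, without overlap (0.96, SE 0.24, adjusted p = 0.00320), and stood at 0.30 from sham (SE 0.23, adjusted p = 0.342). Il2ra, the chain that gives the Il2 receptor its high affinity, read 10.4, 8.77, 24.4 and 37.2 at 14 dpi, where no sample passed background, and 89.6, 47.5 and 57.8 at 60 dpi, where 2 of 3 did. It was above background in just 3 samples, 2 of them at 60 dpi, so it entered the test only through the group in which it was high, and its call supports nothing further (adjusted p = 0.0102 against 14 dpi and 0.0526 against sham). The background limits of the 60 dpi samples on the same scale were 66.1, 46.7 and 60.2. Its raw counts were 84, 58 and 65 there, beside 60, 50 and 72 for NEG_B. The ratio of mean raw counts between the runs was 3.27, within the 0.86 to 4.72 of the untested members and below the 6.93 of NEG_B. Il12b at 19.2, 21.3 and 20.5 was back below the background limit in all 3 samples, so no fold is given (adjusted p = 0.0194, lost without 14 dpi replicate 2 or any 60 dpi replicate, 0.0540 to 0.0888).

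Some markers of other cells were also higher at 60 dpi than in sham. Of 7 monocyte markers 6 rose, with sums of 1031 to 1606 against 552 to 759, and all 3 endothelial markers rose, with sums of 338 to 1047 against 168 to 269. Of 5 neutrophil markers tested 1, Ltf, passed, with sums over all 7 measured of 9398 to 39925 at 60 dpi and 1166 to 9125 in sham. None of the 2 B cell markers or the 1 NK cell marker tested passed at 60 dpi. Their part in the changes of Il13, Il2ra, Il7r, Il10rb, Il17ra and Il21r was not tested.

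**Figure D3:**
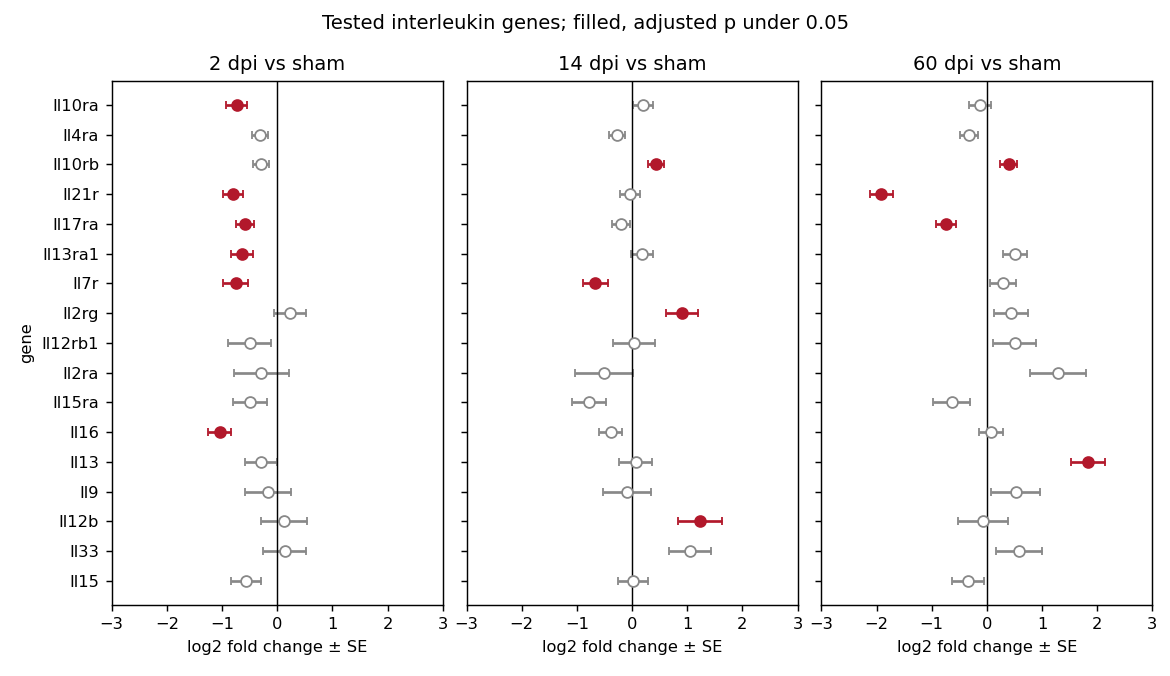
Log2 fold change against sham with its standard error for the 17 tested genes at 2, 14 and 60 dpi; filled red points have an adjusted p under 0.05. Most points lie left of 0 at 2 dpi, and Il21r (-1.92) and Il13 (1.83) stand farthest out at 60 dpi.

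In edgeR with the housekeeping and positive-control factors, Il4ra, Il9, Il12rb1, Il15, Il15ra and Il33 were tested but not called in any comparison, and of these only Il4ra was above background in every sample. Il4ra, Il15, Il15ra and Il33 were each called in some alternative fits. Il15ra, which presents Il15 to neighbouring cells, was lower at 14 dpi without overlap with sham, at -0.78 (SE 0.32, adjusted p = 0.0782), but passed background in 1 of 4 samples there and in 2 of 4 shams. Il15, its ligand, was above background in 1 sham and 2 samples at 14 dpi, and Il9 in 1 sham, 2 samples at 2 dpi and 1 at 14 dpi. Il12rb1, the chain common to the Il12 and Il23 receptors, had log2 differences from sham of -0.50 and 0.04 at 2 and 14 dpi. At 60 dpi no sample passed background, so no fold is given. Its adjusted p-values against sham were 0.307 to 0.960.

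Ligands near the background limit need the negative controls beside them. Il23a, the private subunit of Il23, had raw counts of 13, 7, 9 and 13 in sham and 28, 25, 39 and 13 at 2 dpi. It passed the limit in 2 dpi replicates 1 and 3 only, where the limits were 25.9 and 33.1, and in no other group. With no filter on low counts its log2 fold change at 2 dpi was 1.02 (SE 0.51, adjusted p = 0.165).

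Il3, a growth factor of myeloid progenitors, had raw counts of 6, 9, 8 and 5 in sham, 13, 10, 18 and 12 at 2 dpi, 12, 15, 9 and 6 at 14 dpi, and 50, 47 and 48 at 60 dpi. Il21, made mainly by T helper cells, had 7, 15, 10 and 13 in sham, 5 to 17 at 2 and 14 dpi, and 34, 43 and 55 at 60 dpi. Both genes were higher in every 60 dpi sample than in any other, yet under the background limits of 61.9, 57.1 and 67.7 for these samples. With NEG_B left out of the limit (46.9, 47.8 and 39.7), Il3 passed in 2 of 3 samples and Il21 in 1. With no filter on low counts the log2 fold change against sham was 2.60 for Il3 (SE 0.45, adjusted p = 0.000119) and 1.74 for Il21 (SE 0.48, adjusted p = 0.00844).

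Most, but not all, of the untested members had higher mean raw counts at 60 dpi, in the second run, than in the first run. In the fit with no filter Il2, Il17a, Il17re, Il20 and Il28a were also called higher at 60 dpi, and Il27 against 14 dpi. That fit called 8 of the 43 members higher against sham, beside 104 of all 547 genes. Against 14 dpi it called 10 members and 92 of all genes higher. Il28a, named Ifnl2 in RefSeq, passed the limit in 2 of 3 samples at 60 dpi with 60, 66 and 70 counts, and Il17a in 1 of 3 with 77, 46 and 62. The mean raw count in the second run divided by that in the first had a median of 2.12 over the 26 untested members (range 0.86 to 4.72), 1.64 over the 162 other untested genes and 1.67 over the 7 negative controls without NEG_B. It was 1.02 over the 14 housekeeping genes and 1.27 over the 6 positive controls. The largest ratios after Il3 were 4.29 for Il21, 3.57 for Il2 and 3.42 for Il28a, and 13 of the 26 lay wholly above their first-run range, as did 40 of the 162 other untested genes and 3 of the 8 negative controls.

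**Figure D4:**
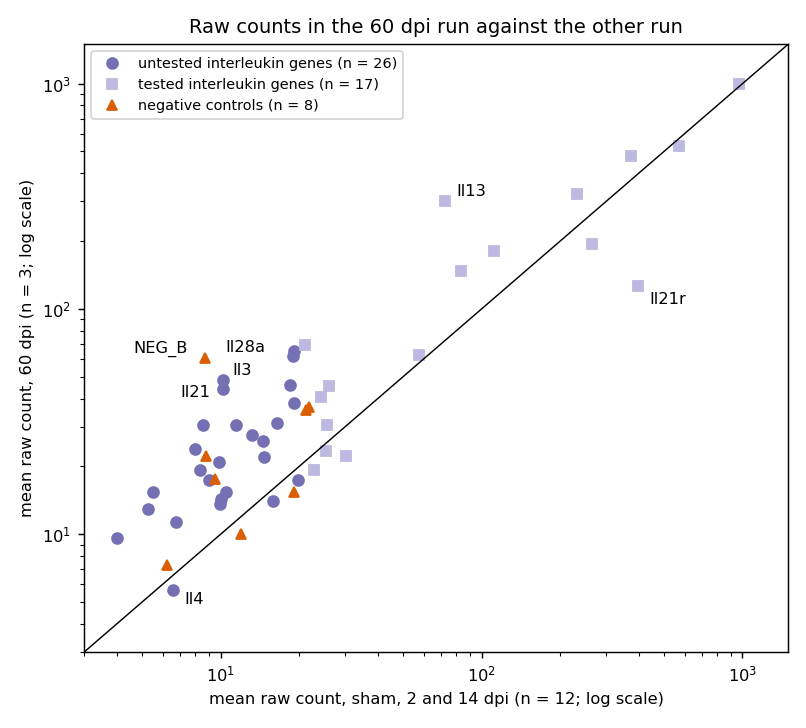
Mean raw count in the second run (60 dpi, 3 samples) against that in the first (sham, 2 and 14 dpi, 12 samples), both on log scales, for untested and tested members and the 8 negative controls; the line marks equal counts. Most untested members and NEG_B lie above the line, Il13 lies above it and Il21r below it.

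The signalling partners of these receptors gave the wider pathway. Of 16 JAK-STAT genes measured 14 were tested. At 2 dpi Jak1, Ptpn2, Ptpn6, Stat5b and Stat6 were lower, and at 14 dpi Ptpn2 was higher. At 60 dpi Jak2, Jak3 and Stat5b were higher. Jak1, the kinase used by common gamma and Il10 receptors, was at -0.55 at 2 dpi (SE 0.14, adjusted p = 0.00774), and Stat6, which carries the Il4 and Il13 signal, was at -0.47 (SE 0.15, adjusted p = 0.0198). The list's median was -0.47, 0.13 and 0.29 at 2, 14 and 60 dpi, beside -0.30, 0.08 and 0.12 over all tested genes.

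All 7 measured genes of the Il17 receptor route were tested. At 2 dpi Nfkb1 and Traf5 were lower, and at 14 dpi Nfkbiz, a transcriptional partner needed for many Il17 targets, was higher. At 60 dpi Cebpb, Nfkb1 and Traf2 were lower, as was Il17ra, and Rela was higher. The list's median log2 fold change was -0.54 at 2 dpi, 0.27 at 14 dpi and -0.0018 at 60 dpi. Over all tested genes it was -0.30, 0.08 and 0.12. Of all tested genes 28.1% were called lower at 2 dpi and 21.4% higher at 14 dpi. At 60 dpi, where the comparison also crosses the 2 runs, 11.1% were called lower and 25.1% higher.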

How the data were processed

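Total RNA from sorted microglia was counted on the NanoString nCounter platform, in which color-coded reporter probes are tallied without amplification. The authors deposited raw nCounter counts per probe, which are whole numbers handled here as estimated counts because the same columns hold lane metrics. Per the labels and headers, no alignment or normalization preceded them, and the panel is named Mouse Inflammation v2 in the labels and an Immunology code set in the file. The authors also deposited a normalized signal (NanoStringNorm), of which all 8205 endogenous values were within 0.001 of the raw count less the negative-control mean, floored at 0 and multiplied by 1 factor per sample. No column was left unmapped.

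Raw counts were tested with edgeR 4.0.16 (quasi-likelihood F test, robust) in R 4.3.3, all 15 samples in 1 fit with 1 mean per group and Benjamini-Hochberg adjustment over 359 genes at 0.05. The negative binomial package of the study's methods was not used here. Scaling factors (0.511 to 1.87) were the geometric mean of the 6 positive controls times a median ratio over 14 housekeeping genes. Genes entered when the raw count passed the mean plus 2 SD of the 8 negative controls in at least 3 samples. Where a group had no sample above background, a fold is given as a bound, the other group's mean over the mean limit. Alternatives changed the scaling, the background, the filter, the tool (DESeq2 1.42.0, or limma 3.58.1 on the log2 signal plus 1) and the samples, and the fitting was tested on simulated data.

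The members, gene lists and naming rule (full values for members called against sham and for Il23a, Il3 and Il21) were chosen with earlier results of these data known. Counts of 5 to 30 are near background, where counting error is large. RefSeq tables matched 42 members by accession and Il12b by symbol. Probe sequences were not used here, and 1 partner gene is not reported here.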

Additional observations from a re-analysis of the deposited data

Results flagged for a closer look

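In the 2 dpi group, replicate 2 stood above the other 3 samples for 4 genes by Dixon's criterion. Its normalized count was 813 for Il10ra (others 508 to 550.3), 318 for Il10rb (253 to 263), 165 for Il16 (124 to 131) and 240.1 for Il17ra (179 to 189). Of 51 combinations of gene and group examined, 4 were picked out. All 4 were the same sample, and genes of 1 sample are not independent, so this number cannot be set against chance. The calls of Il16 and Il17ra at 2 dpi held with replicate 2 left out.

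The change against sham differed between neighbouring time points for 6 of the 17 tested members in each interval, by a test of 1 time point against the other. Such calls were common over all tested genes. From 2 to 14 dpi 39.6% were called higher and 2.79% lower, and from 14 to 60 dpi 21.7% and 22.3%. From 2 to 14 dpi the log2 differences were 0.93 for Il10ra, 0.73 for Il10rb, 1.11 for Il12b, 0.82 for Il13ra1, 0.66 for Il16 and 0.77 for Il21r. From 14 to 60 dpi they were -1.30 for Il12b, 1.76 for Il13, -0.53 for Il17ra, -1.88 for Il21r, 1.79 for Il2ra and 0.96 for Il7r. The latter interval also crosses the 2 runs, and Il2ra entered the test only through its 60 dpi samples.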

How the results depend on the processing

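No call of a member changed direction under any alternative. Over the single calls, 270 values under alternatives stayed past the threshold and 54 did not, and 151 and 45 with a sample left out. Members lower at 2 dpi numbered 6, and 3 with TMM factors, 0 with positive-control factors alone and 3 with DESeq2's own size factors. At 14 dpi, 3 were higher (1 with positive-control factors alone) and 1 was lower (5 with TMM, 5 with DESeq2's factors, 2 with limma, 0 with positive-control factors alone and 0 in a fit of the 2 groups). At 60 dpi, 2 were higher, and 8 with no filter, beside 104 of all 547 genes. The number was 1 with housekeeping factors alone, the negative mean subtracted, an additive background, the 2 groups alone or limma. Also at 60 dpi, 2 were lower, but 4 with DESeq2's factors, subtraction, the additive background or limma and 1 with positive-control factors alone. From 2 to 14 dpi, 6 rose (1 with TMM or DESeq2's factors, 0 with positive-control factors alone) and 0 fell (1, Il4ra, with TMM or DESeq2's factors; edgeR with the scaling used here gave 0 even before adjustment, at 0.05). From 14 to 60 dpi, 3 rose (10 with no filter, beside 92 of all 547 genes) and 3 fell (5 with subtraction, 6 with limma). The cause of these shifts was not tested. Removing the filter added genes to the test, and the call of Il10rb at 60 dpi against sham was lost.

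Leaving out 1 sample at a time gave 4 to 7 lower at 2 dpi, 0 to 4 higher and 0 to 1 lower at 14 dpi, 1 to 2 higher and 2 to 2 lower at 60 dpi, 4 to 9 higher from 2 to 14 dpi, and 2 to 4 higher and 1 to 3 lower from 14 to 60 dpi. Members above background in at least 3 samples numbered 17, and 18 without NEG_B, 12 at the mean plus 3 SD and 19 against the highest negative control. No paired analysis was made, because the groups came from separate mice. The labels number no replicates, and the replicate numbers used here follow the order of lanes within each group. Low counts limit most of the ligands.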
